A study of Mus musculus with 26 samples.

Results

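Mouse fibroblasts can be turned toward pluripotent stem cells with small molecules alone, and the libraries described here ask what changed when Chir was left out of such a course. Chir is an inhibitor of the kinase GSK3. The comparison holds 6 of the 26 RNA sequencing libraries of the series: 3 labelled as reprogramming cells without Chir, on days 18, 22 and 30, and 3 labelled as reprogramming cells with all chemicals on the same days. They were chosen by their labels alone, and each library without Chir was set against the library with all chemicals of the same day. The labels do not list the other chemicals of either course. They carry the omission of Chir on every day from day 6, so Chir was not withdrawn on day 18. A difference on days 18 to 30 therefore cannot be told apart from the carry-over of an earlier one. There is 1 library per course and day, so the 3 days are the only repeats. The spread between pairs holds change with time as well as noise, and the p-values carry no information on how another culture would behave. In addition, 4 libraries of days 6 and 12 from the same courses and 3 libraries of days 18 to 30 from a course without BrdU (a thymidine analogue) are used for comparison. The single fibroblast (MEF) library of day 0 serves as a reference for the starting cells. Libraries of days 6 and 12 without BrdU enter only an alternative fit over 15 libraries.

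GSK3 belongs to a complex that marks beta-catenin for breakdown. When the kinase is inhibited, as it is when Wnt ligands bind their receptors, beta-catenin accumulates and acts with TCF/LEF factors on genes that include the pathway's own feedback inhibitors. Chemical reprogramming of mouse fibroblasts is known to pass through an intermediate that carries transcription factors of extraembryonic (primitive) endoderm together with Sall4 and Lin28a, before the pluripotency network is switched on.

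Values are deposited expression scores, quantile-normalized so that every library has the same distribution, and a score is not corrected for gene length. Each of the 6 libraries has a median score of 77 and 10 genes at the shared maximum of 21988, and the next level down is 11346, so differences among the very highest genes come in coarse steps. Sequencing depth is unknown. Below, 3 scores in a row are those of days 18, 22 and 30. A log2 difference is that of score + 1, without Chir minus all chemicals, averaged over the 3 days, with its moderated standard error from limma. Genes with a Benjamini-Hochberg adjusted p below 0.05, adjusted over every gene tested, are described as called. Bulk libraries cannot tell fewer cells of a type from less RNA per cell.

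Leaving out Chir moved a large part of the transcriptome. Of 16215 genes tested, 5638 were called (34.8%), 2790 of them higher (17.2%) and 2848 lower (17.6%) without Chir. The median over all genes was 0.02. Called or not, 3746 genes had every score without Chir above every score with all chemicals, and 3918 had every score below. Groups that do not overlap are therefore common among all genes. By a rule of size with no test, a difference of at least 1 on the log2 scale with the same sign on each of the 3 days, 1513 genes were higher (9.33%) and 1674 lower (10.3%). On single days, 2844 genes were higher and 2815 lower by that much on day 18, 3425 and 3389 on day 22, and 3698 and 3698 on day 30. Across genes, the libraries without Chir of days 18 and 22 were the most alike of all pairs (Pearson r = 0.969 of log2 scores), and that of day 30 stood at r = 0.911 and 0.914 to them. The count of calls depended on days 18 and 22: limma called 0 genes without day 18 (6025 at an unadjusted p under 0.05) and 0 without day 22 (4436). Without day 30 it called 2519, of which 2271 were also called over the 3 days.

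Expression of most endoderm regulators was lower without Chir than with all chemicals. Of the 17 tested members of the primitive endoderm list, 14 were called lower and 0 higher, with a median log2 difference of -3.95. The list's medians were -4.0, -4.30 and -3.79 on the 3 days. Beside transcription factors, the list holds the uptake genes Cubn, Lrp2, Dab2 and Amn and the receptor gene Pdgfra, all called lower. Gata4, a zinc finger factor of primitive and visceral endoderm, scored 24, 11 and 106 without Chir and 1920, 2768 and 1838 with all chemicals (log2 difference -6.07 ± 0.71, adjusted p = 0.00837). Its highest score without Chir, on day 30, was far below its lowest with all chemicals. Sox17, an HMG-box factor of endoderm, scored 52, 46 and 150 without Chir and 848, 1534 and 1058 with all chemicals (log2 difference -3.95 ± 0.43, adjusted p = 0.0077). Foxa2, a forkhead factor of endoderm, scored 10, 16 and 44 without Chir and 392, 750 and 392 with all chemicals (log2 difference -4.58 ± 0.50, adjusted p = 0.00768). Gata4, Sox17 and Foxa2 share a pattern among the 3 libraries without Chir, in which day 30 is the highest, and none of the 3 reaches the range of the full course.

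Gata6, which acts upstream of Gata4 in primitive endoderm, scored 366, 303 and 233 without Chir and 1368, 2631 and 810 with all chemicals (log2 difference -2.27 ± 0.30, adjusted p = 0.00998). The groups did not overlap, but Gata6 scored at least 233 without Chir. Hnf4a, a nuclear receptor of visceral endoderm and liver, scored 4, 3 and 7 without Chir and 39, 78 and 230 with all chemicals (log2 difference -4.05 ± 0.46, adjusted p = 0.00817). It rose over the 3 days with all chemicals and stayed in single digits without Chir. Sox7, which marks parietal endoderm, scored 216, 172 and 47 without Chir and 546, 992 and 44 with all chemicals and was not called (adjusted p = 0.116). Its groups overlap, and the full course itself stood at 44 on day 30. Foxa1 stood at 8 or below in all 6 libraries.

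The uptake machinery that visceral endoderm uses to take in maternal proteins was lower as well. Cubn, the endocytic receptor cubilin, scored 48, 28 and 20 without Chir and 2276, 1980 and 1024 with all chemicals (log2 difference -5.75 ± 0.18, adjusted p = 0.00443), the smallest p of the primitive endoderm list. Lrp2 (megalin), its partner, scored 34, 26 and 136 without Chir and 1259, 2218 and 4976 with all chemicals (log2 difference -5.57 ± 0.29, adjusted p = 0.00548). Dab2, the adaptor that links such receptors to clathrin, scored 157, 124 and 210 without Chir and 2637, 2637 and 3241 with all chemicals (log2 difference -4.13 ± 0.16, adjusted p = 0.00524). In all 3 genes the highest score without Chir lies far below the lowest of the full course.

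Most genes of the plasma proteins and lipoproteins that visceral endoderm and liver secrete were lower too. Of 26 members of the visceral endoderm list, 18 were called lower and 2 higher (median -2.82, or -1.31 with a pseudocount of 20). Cubn, Lrp2 and Amn stand in both endoderm lists. Apoa1, the main protein of high-density lipoprotein, scored 1, 6 and 1 without Chir and 154, 206 and 114 with all chemicals (log2 difference -5.67 ± 0.40, adjusted p = 0.00555). Apoa4, an apolipoprotein of chylomicrons, scored 3, 3 and 0 without Chir and 166, 190 and 112 with all chemicals (log2 difference -5.93 ± 0.42, adjusted p = 0.00555). Afp, the fetal plasma protein alpha-fetoprotein, scored 13, 20 and 16 without Chir and 55, 60 and 195 with all chemicals (log2 difference -2.36 ± 0.46, adjusted p = 0.0202). The groups of Afp do not overlap, and the gap was widest on day 30. The called rises were Hhex, a homeobox factor of anterior visceral endoderm and blood vessels (88, 93 and 42 against 34, 38 and 6, log2 difference 1.74 ± 0.37), and Trf, transferrin (844, 1080 and 354 against 566, 262 and 72, 1.63 ± 0.37). The scores of Trf overlap between the groups across days.

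Parietal endoderm lays down a thick basement membrane, and some of its structural genes stood at the maximum score in the full course. Of 24 members, 17 were called lower and 1 higher without Chir (median -1.77). Lamc1, the laminin gamma chain, scored 786, 588 and 2280 without Chir and 21988, 21988 and 21988 with all chemicals (log2 difference -4.43 ± 0.43, adjusted p = 0.00669). All 3 libraries with all chemicals are at the maximum, so the difference may be cut short. Lama1, the laminin alpha chain of embryonic basement membranes, scored 210, 128 and 1192 without Chir and 11332, 11332 and 11332 with all chemicals (log2 difference -5.15 ± 0.65, adjusted p = 0.00901). Col4a1, a chain of type IV collagen, scored 1686, 1536 and 3238 without Chir and 11338, 21988 and 21988 with all chemicals (log2 difference -3.12 ± 0.32, adjusted p = 0.007). As with Gata4, Sox17 and Foxa2, the library of day 30 held the highest of the 3 scores without Chir for Lamc1, Lama1 and Col4a1. P4ha2, a prolyl hydroxylase that matures collagen, scored 288, 297 and 369 without Chir and 1178, 1468 and 1240 with all chemicals (log2 difference -2.03 ± 0.17, adjusted p = 0.00615). Srgn, the proteoglycan serglycin, scored 218, 264 and 378 without Chir and 3634, 2550 and 2420 with all chemicals (log2 difference -3.33 ± 0.29, adjusted p = 0.00626). Plat, the tissue plasminogen activator, was the called rise, with 666, 635 and 317 without Chir and 254, 233 and 212 with all chemicals (log2 difference 1.14 ± 0.22, adjusted p = 0.0207).

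**Figure D1:**
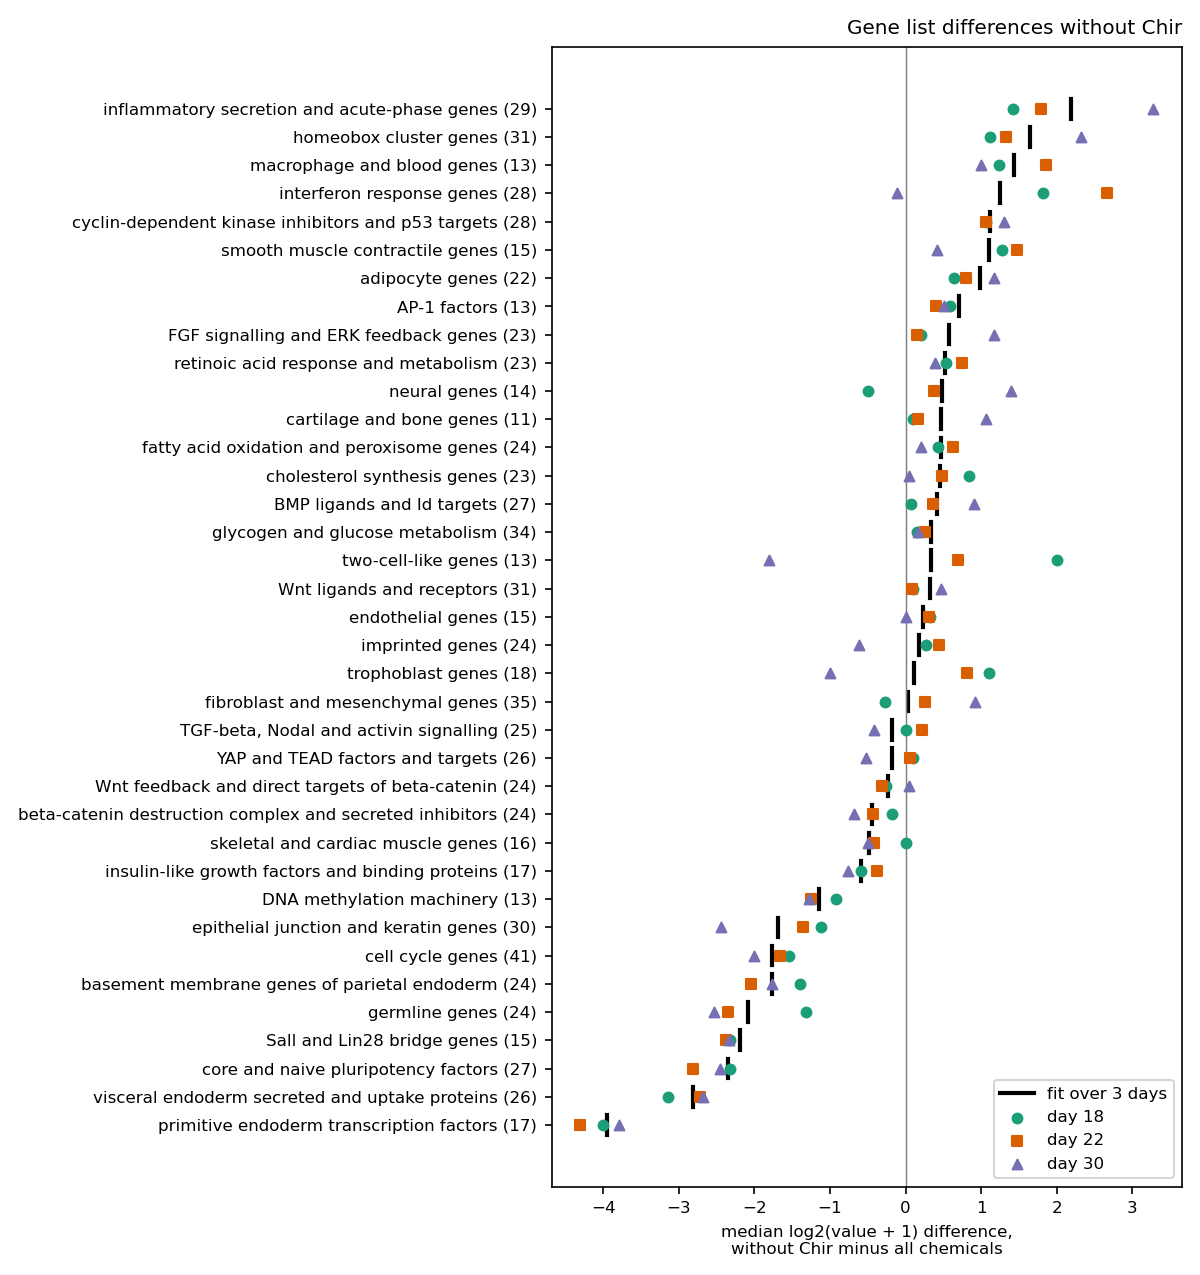
Median log2(score + 1) difference, without Chir minus all chemicals, over the tested members of 37 gene lists (number in brackets). Coloured marks are the medians on single days and the black bar is the median of the differences fitted over the 3 days. Endoderm, pluripotency, germline and cell cycle lists lie to the left of 0 on all 3 days, and the inflammatory and homeobox lists to the right.

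Most pluripotency genes were lower without Chir. Of 27 members tested, 19 were called lower and 0 higher (median -2.35, or -1.02 with a pseudocount of 20). Pou5f1, the POU factor at the centre of the pluripotency network, scored 0, 2 and 2 without Chir and 112, 193 and 246 with all chemicals (log2 difference -6.40 ± 0.34, adjusted p = 0.00548). It was at or near 0 on every day without Chir and rose over the 3 days with all chemicals. Dppa5a, an RNA-binding protein of pluripotent cells, scored 1, 2 and 16 without Chir and 384, 659 and 460 with all chemicals (log2 difference -6.71 ± 0.67, adjusted p = 0.00678). Tfcp2l1, a factor of naive pluripotency, scored 5, 7 and 8 without Chir and 132, 339 and 153 with all chemicals (log2 difference -4.66 ± 0.35, adjusted p = 0.00555). Nanog (0, 0 and 3 against 4, 2 and 32, log2 difference -2.32 ± 0.54, adjusted p = 0.031) and Sox2 (1, 1 and 2 against 1, 1 and 11, adjusted p = 0.452) were barely present in either course over these days. For Sox2 that leaves no difference that can be read at this level. L1td1, an RNA-binding protein of embryonic stem cells, scored 28, 26 and 40 without Chir and 156, 227 and 390 with all chemicals (log2 difference -2.92 ± 0.24, adjusted p = 0.00611), and Fbxo15, an F-box protein of such cells, scored 0, 0 and 4 without Chir and 26, 50 and 99 with all chemicals (log2 difference -4.92 ± 0.46, adjusted p = 0.00626). L1td1 kept a low score on all 3 days without Chir, while Fbxo15 scored 0 on days 18 and 22.

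Most genes known from both the endoderm-like and the pluripotent stage were also lower without Chir. Of 15 members of the Sall and Lin28 list, 10 were called lower and 0 higher (median -2.19). Several of the 10 are counted in other lists as well. Sall4 stands in the primitive endoderm list, Dppa2 and Esrrb in the pluripotency list and Mycn in the list of Wnt feedback genes. Igf2bp1, Igf2bp2 and Igf2bp3 stand in the insulin-like growth factor list. Sall4, a zinc finger factor of both states, scored 22, 14 and 22 without Chir and 424, 760 and 480 with all chemicals (log2 difference -4.75 ± 0.34, adjusted p = 0.00555). Lin28a, the RNA-binding protein that blocks let-7 maturation, scored 13, 6 and 24 without Chir and 376, 488 and 338 with all chemicals (log2 difference -4.88 ± 0.48, adjusted p = 0.00672). Both were at 24 or below in every library without Chir and at 338 or above in the full course. Sall1, a relative of Sall4, scored 17, 18 and 24 without Chir and 543, 598 and 227 with all chemicals (log2 difference -4.36 ± 0.42, adjusted p = 0.0065). Lin28b, the close relative of Lin28a, scored 56, 28 and 36 without Chir and 38, 30 and 48 with all chemicals (log2 difference 0.02 ± 0.30, adjusted p = 0.974), and its groups overlap. Igf2bp1 (-2.73 ± 0.22) and Igf2bp2 (-2.12 ± 0.17), RNA-binding proteins of embryonic growth, were lower on all 3 days.

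Most epithelial genes were lower. Of 30 members tested, 18 were called lower and 1 higher (median -1.68, or -1.02 with a pseudocount of 20). Cdh1, the epithelial cadherin, scored 62, 57 and 96 without Chir and 716, 806 and 2038 with all chemicals (log2 difference -3.90 ± 0.21, adjusted p = 0.00548). Dsg2, a desmosomal cadherin, scored 9, 15 and 15 without Chir and 252, 304 and 354 with all chemicals (log2 difference -4.46 ± 0.21, adjusted p = 0.00548). The groups of Cdh1 and Dsg2 are far apart on every day. Esrp1 (-3.54 ± 0.26) and Esrp2 (-2.91 ± 0.26), which direct epithelial splicing, were called lower as well. Epcam, an epithelial adhesion molecule, scored 344, 332 and 264 without Chir and 1274, 1408 and 1985 with all chemicals (log2 difference -2.29 ± 0.24, adjusted p = 0.00725), and Krt8, a keratin of simple epithelia, scored 541, 574 and 424 without Chir and 1441, 1535 and 1835 with all chemicals (log2 difference -1.65 ± 0.20, adjusted p = 0.00883). Epcam and Krt8 scored at least 264 without Chir, above the scores of the starting fibroblasts (4 and 6). Perp, a desmosomal protein that is also a target of p53, was the called rise, with 697, 796 and 615 without Chir and 137, 84 and 54 with all chemicals (log2 difference 3.02 ± 0.26, adjusted p = 0.00626).

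Targets of beta-catenin did not fall together on these days. Of 24 tested members of the list of Wnt feedback genes and direct targets, 5 were called lower (20.8%) and 4 higher (16.7%), with a median of -0.23. These shares lie near those of all genes tested, 17.6% lower and 17.2% higher. Axin2, a scaffold of the destruction complex and the usual reporter of Wnt activity, scored 59, 46 and 98 without Chir and 462, 354 and 131 with all chemicals (log2 difference -2.09 ± 0.56, adjusted p = 0.0447). Its groups did not overlap, and the gap was widest on days 18 and 22 and narrow on day 30. Znrf3, a ubiquitin ligase that removes Wnt receptors, scored 10, 10 and 18 without Chir and 90, 74 and 97 with all chemicals (log2 difference -2.73 ± 0.29, adjusted p = 0.00723). Dkk1, a secreted Wnt inhibitor, scored 14, 5 and 14 without Chir and 72, 128 and 97 with all chemicals (log2 difference -3.14 ± 0.50, adjusted p = 0.0131), and Mycn, a MYC family factor, scored 20, 7 and 5 without Chir and 120, 210 and 110 with all chemicals (log2 difference -3.82 ± 0.49, adjusted p = 0.00937). Fst, the activin-binding protein follistatin, was the remaining called fall (-0.71 ± 0.16), with groups that overlap across days.

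Other feedback genes were not called. Lef1, a DNA-binding partner of beta-catenin, scored 50, 32 and 26 without Chir and 68, 46 and 18 with all chemicals (log2 difference -0.15 ± 0.32, adjusted p = 0.746). Nkd1, an inhibitor of Dishevelled, scored 78, 62 and 74 without Chir and 48, 44 and 34 with all chemicals (log2 difference 0.76 ± 0.24, adjusted p = 0.068). Sp5, a zinc finger factor induced by Wnt, scored 9, 8 and 9 without Chir and 18, 22 and 16 with all chemicals (log2 difference -1.02 ± 0.36, adjusted p = 0.0871). Sp5 was lower on each day but at scores under 25 in both courses. Notum (log2 difference 0.60 ± 0.23, adjusted p = 0.104), an enzyme that inactivates Wnt ligands, and Lgr5 (log2 difference -0.94 ± 0.38, adjusted p = 0.117), a receptor of R-spondins, were not called either. Ccnd1, the G1 cyclin D1 and a textbook target of beta-catenin, went the opposite way, with 4502, 4502 and 1046 without Chir and 300, 167 and 107 with all chemicals (log2 difference 3.97 ± 0.30, adjusted p = 0.00563). Every score without Chir was above every score of the full course. Myc scored 350, 570 and 86 without Chir and 269, 252 and 22 with all chemicals (log2 difference 1.16 ± 0.32, adjusted p = 0.0484), and its groups overlap across days although it was higher without Chir on each day. Lgr6 (3.06 ± 0.51), another receptor of R-spondins, and Bambi (1.0 ± 0.21), a decoy receptor of BMP and TGF-beta, were the other called rises.

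For the upstream parts of the pathway, 4 of 31 ligand and receptor genes were called higher and 4 lower (12.9% each). Among all genes tested the shares were 17.2% and 17.6%. The rises were the Wnt-enhancing secreted factors Rspo1 (2.82 ± 0.37) and Rspo3 (1.10 ± 0.25) and the ligands Wnt10a (2.59 ± 0.65) and Wnt6 (1.36 ± 0.37), and the scores of Rspo1 and Wnt6 overlap across days. The falls were the receptor Fzd5 (44, 60 and 56 against 161, 216 and 384, -2.14 ± 0.26), the co-receptors Lrp6 (-0.94 ± 0.17) and Lrp5 (-1.16 ± 0.29) and the ligand Wnt7b (-1.70 ± 0.45). Among destruction complex genes and inhibitors, 9 of 24 were called lower and 1 higher (median -0.44). Tcf7l2, a TCF factor, scored 84, 86 and 110 without Chir and 416, 438 and 390 with all chemicals (log2 difference -2.15 ± 0.18, adjusted p = 0.00615), and Dvl3, a Dishevelled protein, scored 28, 34 and 16 without Chir and 199, 276 and 268 with all chemicals (log2 difference -3.25 ± 0.30, adjusted p = 0.00626). Both groups are apart on all 3 days. The gene of beta-catenin itself, Ctnnb1, scored 4508, 4508 and 1368 without Chir and 3420, 3234 and 3234 with all chemicals (log2 difference -0.12 ± 0.40, adjusted p = 0.832), and those of the kinases, Gsk3a (adjusted p = 0.646) and Gsk3b (adjusted p = 0.0621), were not called. These are RNA levels and say nothing of the amount or activity of the proteins.

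Promoters of feedback genes are shown because beta-catenin acts through TCF/LEF factors that bind ATCAAAG. The windows run from 250 bases before to 50 after the start site, from RefSeq (GRCm38.p6). Letters in capitals mark ATCAAAG or the GATA core AGATAA on either strand, and CATTCC, the TEAD core, was also searched. No motif overlapped another. The promoter of Axin2 (chr11:108920099-108920398, plus strand), called lower, held none of the 3. That of Sp5 (chr2:70474673-70474972, plus strand), not called, held ATCAAAG on the minus strand, 104 bases before the start, and AGATAA on each strand, 226 and 29 bases before it.
Axin2: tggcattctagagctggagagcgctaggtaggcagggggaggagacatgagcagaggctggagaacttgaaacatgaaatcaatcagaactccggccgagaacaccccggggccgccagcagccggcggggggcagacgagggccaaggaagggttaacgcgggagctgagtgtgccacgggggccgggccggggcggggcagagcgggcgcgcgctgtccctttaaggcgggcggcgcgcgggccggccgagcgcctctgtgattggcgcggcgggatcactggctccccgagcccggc
Sp5: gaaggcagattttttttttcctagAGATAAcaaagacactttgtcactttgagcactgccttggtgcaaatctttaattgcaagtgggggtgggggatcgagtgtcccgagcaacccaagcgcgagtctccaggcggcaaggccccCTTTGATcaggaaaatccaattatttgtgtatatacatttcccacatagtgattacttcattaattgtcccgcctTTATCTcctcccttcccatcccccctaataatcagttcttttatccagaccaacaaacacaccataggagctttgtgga
The promoter of Nkd1 held none, and of the promoters of Lef1 in that set, only the last held AGATAA, 18 bases after the start. Among all tested genes, 73.8% had a promoter in the table. ATCAAAG stood in 2.7% of all 15187 promoters, in 2.61% of those of genes called lower and in 2.94% of those called higher. AGATAA stood in 7.05%, 6.32% and 7.51% of them, and CATTCC in 12.8%, 12.5% and 13.6%. The shares among called genes lie near those of all genes for each of the 3 motifs, and a match is a description of letters, not a site.

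**Figure D2:**
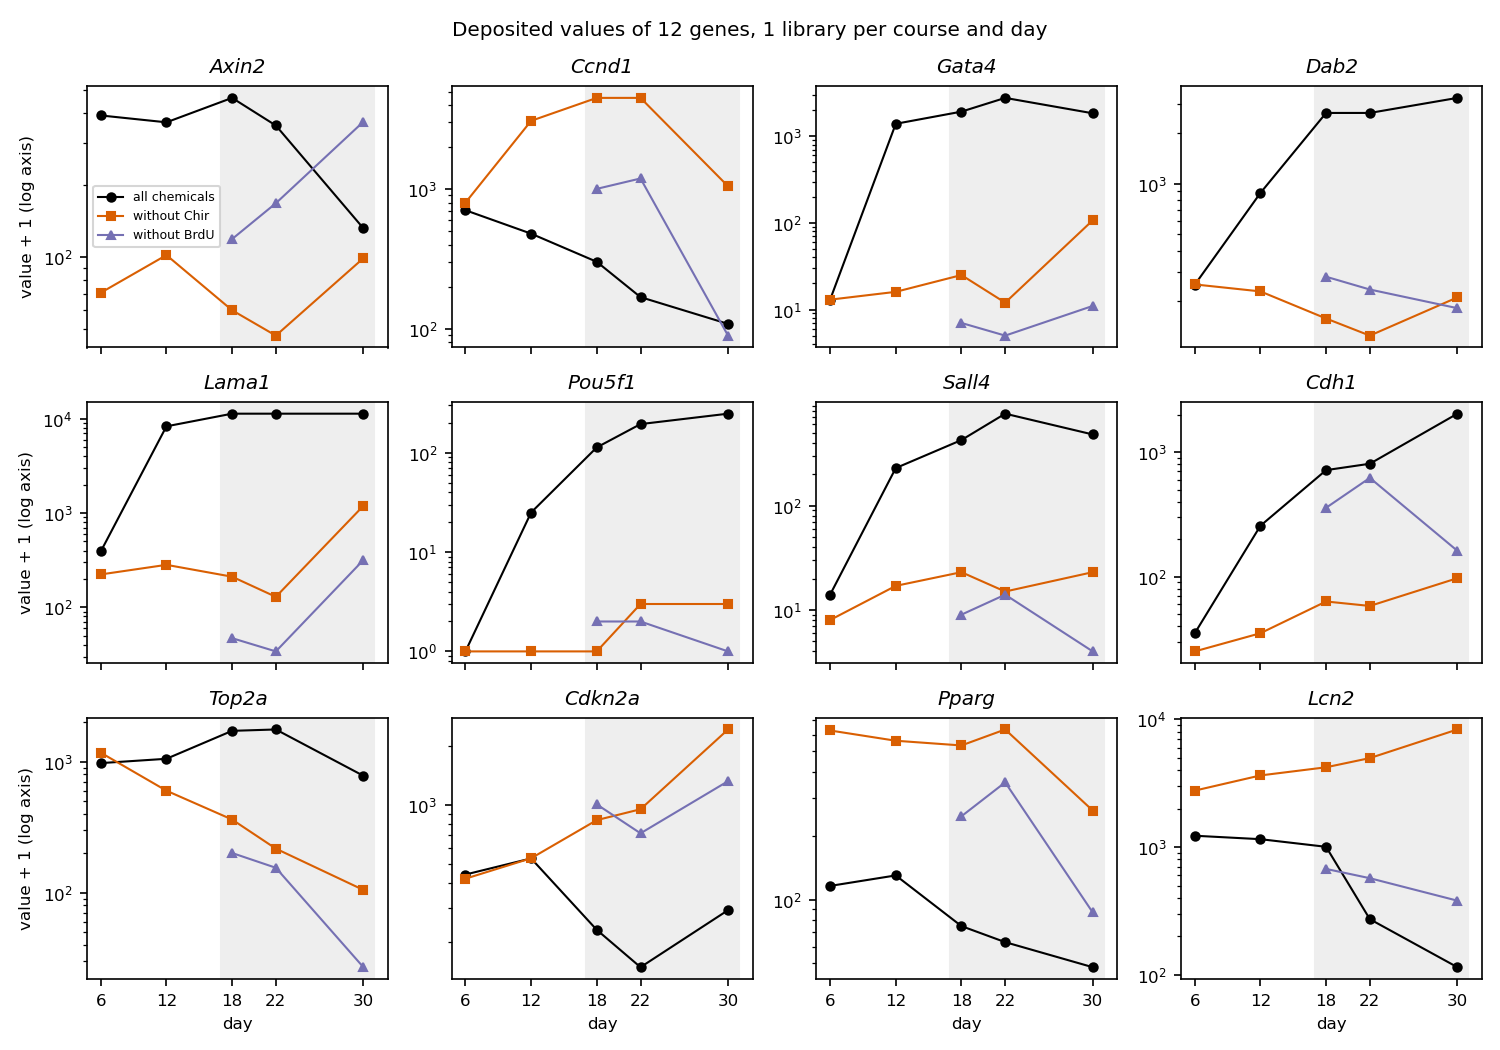
Deposited scores + 1 (log axis) of 12 genes against day in the course with all chemicals (black circles), without Chir (orange squares) and, for days 18 to 30, without BrdU (purple triangles); each point is 1 library and the grey band covers days 18 to 30. Gata4, Dab2, Lama1, Pou5f1, Sall4 and Cdh1 lie apart from day 12 on, while Axin2 is already apart on day 6 and draws near on day 30.

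Most proliferation genes were lower without Chir. Of 41 cell cycle genes, 32 were called lower and 2 higher (median -1.76), and the daily medians were -1.54, -1.67 and -2.01. Ccnb1, the mitotic cyclin B1, scored 85, 66 and 34 without Chir and 616, 468 and 231 with all chemicals (log2 difference -2.79 ± 0.15, adjusted p = 0.00548). Top2a, a topoisomerase of dividing cells, scored 361, 216 and 104 without Chir and 1720, 1762 and 780 with all chemicals (log2 difference -2.72 ± 0.20, adjusted p = 0.00555), and Mki67, the proliferation marker Ki-67, scored 186, 120 and 28 without Chir and 975, 1154 and 390 with all chemicals (log2 difference -3.13 ± 0.29, adjusted p = 0.00626). The scores of these 3 genes were lowest on day 30 in both courses. Ccna2, the cyclin of S phase and G2, was lower by a like amount (-2.72 ± 0.20). The called rises were Ccne1, cyclin E1 (196, 210 and 139 against 134, 108 and 66, 0.85 ± 0.19), and Gins2, of the replicative helicase (257, 326 and 223 against 114, 104 and 86, 1.39 ± 0.17). Cyclin E1 and Gins2 act at the start of replication, but other list members of that step were called lower. Among them were Cdc6 (-2.75), Cdt1 (-1.92) and Gins1 (-1.38).

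Most inhibitors of the cell cycle and targets of p53 were higher. Of 28 members, 21 were called higher and 1 lower (median 1.11). Cdkn2a, the locus of p16INK4a and p19ARF, scored 836, 950 and 2424 without Chir and 230, 148 and 290 with all chemicals (log2 difference 2.53 ± 0.26, adjusted p = 0.0071), and Cdkn2b, its neighbour that encodes p15, scored 674, 660 and 666 without Chir and 126, 100 and 119 with all chemicals (log2 difference 2.53 ± 0.15, adjusted p = 0.00548). For both genes the groups are well apart. Cdkn1a (p21), an inhibitor induced by p53, scored 1470, 1614 and 1714 without Chir and 751, 804 and 771 with all chemicals (log2 difference 1.04 ± 0.14, adjusted p = 0.0107). Ccng1, cyclin G1 and a target of p53, scored 11324, 11324 and 21988 without Chir and 1647, 1436 and 1872 with all chemicals (log2 difference 3.10 ± 0.25, adjusted p = 0.00596) and reached the maximum on day 30. Phlda3, another target of p53, scored 983, 1037 and 972 without Chir and 338, 354 and 306 with all chemicals (log2 difference 1.58 ± 0.13, adjusted p = 0.00625). The called fall was Cdkn1b (p27), with 119, 100 and 132 without Chir and 234, 222 and 210 with all chemicals (log2 difference -0.93 ± 0.17, adjusted p = 0.0184). The list joins cell cycle inhibitors with genes of apoptosis and stress, and Perp stands in it and in the epithelial list.

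Most secreted inflammatory genes were higher without Chir. Of 29 members, 17 were called higher and 0 lower (median 2.18), and the daily medians grew from 1.43 to 1.79 and 3.28. Timp1, an inhibitor of metalloproteases, scored 791, 652 and 684 without Chir and 158, 188 and 100 with all chemicals (log2 difference 2.29 ± 0.22, adjusted p = 0.00671). Csf1, the macrophage growth factor, scored 601, 612 and 793 without Chir and 216, 143 and 190 with all chemicals (log2 difference 1.87 ± 0.18, adjusted p = 0.00671). Lcn2, the iron-carrier protein lipocalin 2, scored 4208, 4966 and 8314 without Chir and 1004, 272 and 114 with all chemicals (log2 difference 4.14 ± 0.78, adjusted p = 0.0187). Lcn2 went up over the 3 days without Chir and down in the full course, so its gap was widest on day 30. Il1rn, the interleukin 1 receptor antagonist, scored 83, 68 and 28 without Chir and 12, 9 and 2 with all chemicals (log2 difference 2.92 ± 0.33, adjusted p = 0.00787). Saa3, an acute-phase protein, was not called (13, 14 and 692 against 6, 5 and 36, adjusted p = 0.0734). Its high score is that of day 30 without Chir.

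Interferon response genes had daily medians of unlike sign. Of 28 members, 6 were called higher (21.4%, against 17.2% of all genes) and 0 lower (against 17.6%). The daily medians were 1.82, 2.67 and -0.11. Ifi27, an interferon-induced protein, scored 682, 681 and 1058 without Chir and 176, 86 and 200 with all chemicals (log2 difference 2.44 ± 0.23, adjusted p = 0.00647), and Rsad2 (viperin) scored 270, 264 and 76 without Chir and 25, 18 and 28 with all chemicals (log2 difference 2.86 ± 0.52, adjusted p = 0.0172). Bst2 (tetherin) scored 2902, 2328 and 2032 without Chir and 376, 345 and 2100 with all chemicals and was not called (adjusted p = 0.0785). In Bst2 the day 30 library of the full course stands near the libraries without Chir and far from days 18 and 22 of its own course. The list's mean level in the full course was 5.94, 5.12 and 7.28 as log2(score + 1), against 7.72, 7.64 and 6.96 without Chir. Genes of the 2-cell-like state, many of them near-identical copies, had daily medians of 2.0, 0.69 and -1.81 (2 of 13 called higher, or 15.4%, and 0 lower). Those of trophoblast genes were 1.11, 0.81 and -1.01. In each of these 3 lists the sign of the median on day 30 was the opposite of that on days 18 and 22.

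Fibroblast genes were called in both directions and lay below the level of the starting cells. Of 35 fibroblast genes, 10 were called higher (28.6%, against 17.2% of all genes) and 4 lower (11.4%, against 17.6%). The median of the 35 was 0.03, with -0.28, 0.26 and 0.91 on the 3 days. Their mean level was 8.09, 8.01 and 8.44 without Chir, 8.46, 7.54 and 7.80 with all chemicals and 11.06 in the fibroblast library of day 0, as log2(score + 1). Cdh2, the mesenchymal cadherin, scored 494, 553 and 468 without Chir and 93, 79 and 71 with all chemicals (log2 difference 2.63 ± 0.16, adjusted p = 0.00548). Vim, the intermediate filament vimentin, scored 6877, 8326 and 8326 without Chir and 2334, 1371 and 844 with all chemicals (log2 difference 2.49 ± 0.37, adjusted p = 0.0118), and S100a4, a calcium-binding protein of fibroblasts, scored 908, 950 and 446 without Chir and 213, 92 and 14 with all chemicals (log2 difference 3.45 ± 0.54, adjusted p = 0.0129). All 3 genes had separate groups. Thy1, a fibroblast surface protein, scored 686, 510 and 385 without Chir and 430, 120 and 176 with all chemicals (log2 difference 1.29 ± 0.30, adjusted p = 0.0305), and its groups overlap across days. Col6a1, a chain of type VI collagen, went the other way, with 165, 116 and 96 without Chir and 1152, 619 and 794 with all chemicals (log2 difference -2.75 ± 0.18, adjusted p = 0.00555), as did Fbln1, a matrix protein (410, 370 and 220 against 1916, 2329 and 2277, -2.75 ± 0.25). Col1a1, the main fibrillar collagen, did not pass the test (1303, 983 and 2280 against 1368, 886 and 2331, log2 difference 0.02 ± 0.15, adjusted p = 0.944), nor did the transcription factors Twist1 (adjusted p = 0.98) and Snai2 (adjusted p = 0.231).

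Some contractile and fat cell genes were higher. Of 15 smooth muscle genes, 5 were called higher (33.3%, against 17.2% of all genes) and 1 lower (6.67%, against 17.6%), with a median of 1.10. Acta2, smooth muscle actin, scored 206, 185 and 1070 without Chir and 17, 18 and 134 with all chemicals (log2 difference 3.27 ± 0.19, adjusted p = 0.00548), and Tagln, an actin-binding protein, scored 79, 65 and 334 without Chir and 8, 14 and 112 with all chemicals (log2 difference 2.29 ± 0.37, adjusted p = 0.0135). Acta2 stood at the maximum of 21988 in the fibroblast library, so both courses are far below it. Myl9, a myosin light chain, was the called fall, with 22, 16 and 72 without Chir and 409, 388 and 782 with all chemicals (log2 difference -4.03 ± 0.26, adjusted p = 0.00555). Of 22 adipocyte genes, 8 were called higher (36.4%) and 1 lower (4.55%), with a median of 0.98. Pparg, the nuclear receptor that directs fat cell formation, scored 532, 633 and 262 without Chir and 74, 62 and 47 with all chemicals (log2 difference 2.87 ± 0.22, adjusted p = 0.00563). Fabp4, a fatty acid carrier of fat cells, scored 1094, 1182 and 710 without Chir and 104, 71 and 20 with all chemicals (log2 difference 4.17 ± 0.35, adjusted p = 0.00622), and Cebpa, which acts with Pparg, scored 187, 164 and 105 without Chir and 52, 60 and 26 with all chemicals (log2 difference 1.75 ± 0.21, adjusted p = 0.00868). Adipoq, the hormone adiponectin of mature fat cells, was called higher at low scores (17, 16 and 59 against 4, 0 and 4, 3.17 ± 0.58).

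Homeobox cluster genes, which keep a record of body position in fibroblasts, were called higher for 16 of 31 members and lower for 0 (median 1.64). Hoxc6 scored 235, 246 and 392 without Chir and 38, 30 and 58 with all chemicals (log2 difference 2.78 ± 0.18, adjusted p = 0.00555) and Hoxb6 scored 84, 108 and 194 without Chir and 6, 5 and 5 with all chemicals (log2 difference 4.27 ± 0.38, adjusted p = 0.00626). The list's mean level without Chir (5.09, 4.83 and 5.36) lay below that of the fibroblast library (5.70) and above that of the full course (3.96, 3.34 and 3.08). Retinoic acid genes were called in both directions. The binding protein Crabp2 (537, 544 and 239 against 134, 81 and 48, 2.34 ± 0.20) and the retinol acyltransferase Lrat (3.67 ± 0.45) were called higher. The enzymes that break retinoic acid down, Cyp26a1 (2163, 1190 and 436 against 4959, 3627 and 2902, -1.85 ± 0.33) and Cyp26c1 (-2.24 ± 0.41), were called lower. In all, 9 of 23 retinoic acid genes were called higher (39.1%) and 3 lower (13%), against 17.2% and 17.6% of all genes.

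BMP genes included targets that were higher, with 8 of 27 called higher (29.6%) and 2 lower (7.41%, median 0.42). The shares over all genes tested were 17.2% and 17.6%. Smad6, an inhibitor induced by BMP, scored 910, 884 and 356 without Chir and 128, 104 and 69 with all chemicals (log2 difference 2.75 ± 0.19, adjusted p = 0.00555), and Id1 (0.94 ± 0.15) and Id3 (1.34 ± 0.24), targets of BMP, rose with it. Bmp2 itself was lower (185, 188 and 72 against 820, 1037 and 137, -1.84 ± 0.33). Of 24 imprinted genes, 5 were called higher (20.8%) and 6 lower (25%), against 17.2% and 17.6% of all genes. Dlk1, a NOTCH-like surface protein of progenitor cells, scored 6861, 8303 and 825 without Chir and 1225, 1177 and 91 with all chemicals (log2 difference 2.82 ± 0.19, adjusted p = 0.00555), while Meg3, the noncoding RNA of the same locus, scored 1406, 1125 and 1078 without Chir and 2760, 3084 and 3416 with all chemicals (log2 difference -1.36 ± 0.20, adjusted p = 0.0118), so these genes of that locus were called in opposite directions. The scores of Dlk1 overlap across days, and both courses stood lowest on day 30. Peg10, a retrotransposon-derived gene of placenta, scored 2330, 2104 and 982 without Chir and 11331, 11331 and 11331 with all chemicals (log2 difference -2.75 ± 0.32, adjusted p = 0.00836).

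Most germline and DNA methylation genes were lower. Of 24 germline genes, 14 were called lower and 0 higher (median -2.09). Kit, a receptor of germ cells and other progenitors, scored 33, 34 and 60 without Chir and 1756, 1794 and 1226 with all chemicals (log2 difference -5.23 ± 0.32, adjusted p = 0.00548). The meiotic protein Sycp1 was called at lower scores (17, 26 and 24 against 74, 94 and 84, -1.88 ± 0.24). Of 13 genes of the DNA methylation machinery, 8 were called lower and 1 higher (median -1.15). The methyltransferases Dnmt3a (57, 58 and 62 against 323, 354 and 346, -2.51 ± 0.15) and Dnmt3b (22, 14 and 4 against 226, 206 and 44, -3.42 ± 0.27) and Uhrf1 (45, 39 and 25 against 386, 341 and 366, -3.33 ± 0.23), which brings Dnmt1 to new DNA, were among the falls. Uhrf1 is also a cell cycle gene. Dnmt3l, a cofactor of the methyltransferases, was not called (8, 6 and 16 against 28, 84 and 24, adjusted p = 0.075).

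Metabolic lists were called in both directions. Cholesterol synthesis genes were called higher in 7 of 23 cases and lower in 2 (median 0.46), with Msmo1 (1.27 ± 0.15) and Idi1 (1.86 ± 0.22), enzymes of the pathway, among the rises. For glycogen and glucose genes the counts were 6 and 4 of 34. GSK3 is named for glycogen synthase. Ugp2 (2.11 ± 0.22) and Gbe1 (0.98 ± 0.14), enzymes of glycogen synthesis, were called higher and the glucose transporters Slc2a1 (-1.99 ± 0.39) and Slc2a3 (-2.86 ± 0.30) lower. Among other glycogen genes of the list, Gyg (1.11) was called higher and Ppp1r3c (-1.91) lower. The glycogen synthase gene Gys1 was not called (log2 difference 0.25, adjusted p = 0.274). The share called higher was 30.4% for the cholesterol list and 17.6% for the glucose list, against 17.2% of all genes. TGF-beta (5 higher and 5 lower of 25), YAP and TEAD (5 and 5 of 26) and FGF (6 and 4 of 23) genes were called in both directions. Their shares called higher were 20%, 19.2% and 26.1%. Those called lower were 20%, 19.2% and 17.4%, against 17.6% of all genes. Fatty acid oxidation genes gave 7 higher (29.2%) and 2 lower (8.33%) of 24, and insulin-like growth factor genes 3 (17.6%) and 7 (41.2%) of 17.

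Markers of other cell types were called in both directions. Lyz2, a lysozyme of macrophages and other myeloid cells, scored 277, 278 and 97 without Chir and 16, 19 and 8 with all chemicals (log2 difference 3.76 ± 0.24, adjusted p = 0.00555). The leukocyte marker Ptprc was at 10, 0 and 0 without Chir and 12, 0 and 0 with all chemicals, against 178 in the fibroblast library. The complement gene C1qb was at 7, 3 and 1 and 0, 0 and 0, against 498 there. Of 13 macrophage genes tested, 2 were called higher (15.4%, against 17.2% of all genes) and 0 lower (against 17.6%). The mean level of the 13 was 3.67 to 4.78 without Chir and 2.42 to 3.63 with all chemicals. Of 15 endothelial genes, 3 were called higher, among them Eng, a co-receptor of TGF-beta and BMP (833, 742 and 440 against 76, 46 and 34, 3.69 ± 0.18), and 5 lower. The lower members were Flt1, a receptor of vascular growth factors (119, 112 and 276 against 2280, 2331 and 5530, log2 difference -4.31 ± 0.13, adjusted p = 0.00443), the adhesion molecules Esam (-2.41 ± 0.26) and Cdh5 (-1.80 ± 0.47), the clotting protein gene Vwf (-1.94 ± 0.29) and the receptor gene Tek (-1.17 ± 0.28). The vessel markers Pecam1 (adjusted p = 0.873) and Kdr (adjusted p = 0.155) were not called. The endothelial shares were 20% higher and 33.3% lower, against 17.2% and 17.6% of all genes. Neural (3 higher and 1 lower of 14), muscle (1 and 3 of 16), cartilage and bone (2 and 0 of 11) and trophoblast (3 and 2 of 18) genes were short lists. Their shares called higher were 21.4%, 6.25%, 18.2% and 16.7%, and those called lower 7.14%, 18.8%, 0% and 11.1%. Stmn2, a tubulin-binding protein of neurons, was the neural gene with the smallest p (644, 525 and 334 against 62, 28 and 12, 4.07 ± 0.30). It already scored 258 in the fibroblast library. The part of these cells in the other results was not tested.

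Most of the largest single falls were of genes at or near 0 on days 18 and 22 without Chir. They were ranked among called genes with the same sign on all 3 days and a score of at least 50 in at least 3 libraries. The libraries with all chemicals can meet that score alone. Ranking by log2(score + 1) favours genes near 0 without Chir, so those low scores follow in part from the rule. Igfbp1, which binds insulin-like growth factors outside the cell, scored 0, 0 and 0 without Chir and 82, 167 and 4962 with all chemicals (log2 difference -8.68 ± 1.21, adjusted p = 0.0107), a score of 0 in every library without Chir. Pgc, the aspartic protease pepsinogen C, scored 0, 0 and 2 without Chir and 299, 742 and 316 with all chemicals (log2 difference -8.16 ± 0.60, adjusted p = 0.00555). F2, the liver protein prothrombin, scored 1, 0 and 24 without Chir and 504, 867 and 1125 with all chemicals (log2 difference -7.74 ± 0.83, adjusted p = 0.0073). B4galnt3, a glycosyltransferase that overlaps D330020A13Rik on the opposite strand, scored 0, 0 and 1 without Chir and 173, 230 and 85 with all chemicals (log2 difference -6.91 ± 0.59, adjusted p = 0.00626). Each of these 4 genes is at 24 or below without Chir and at 82 or above with all chemicals. Myl3, a myosin light chain, also fell (-6.82 ± 1.33). It overlaps Pth1r on the opposite strand, which encodes a receptor of parathyroid hormone expressed in parietal endoderm, and Pth1r fell too (6, 8 and 214 against 1116, 1191 and 1756, -5.80 ± 0.90). The labels name a kit with no stated strand marking, so reads from the stretch that both genes cover cannot be told apart. The same holds for Tnk1 (-6.81 ± 0.38), which overlaps Plscr3, and for Gm38394 (-7.33 ± 1.19), which overlaps Zc3h11a on the same strand. Gm37167 (-9.35 ± 0.49), Gm38194, Gm37758 (-7.52 ± 0.36) and Gm37282 (-7.25 ± 0.31) are annotated only as transcripts still to be tested by experiment. Gm38194 scored 70, 55 and 54 without Chir and 11324, 21988 and 21988 with all chemicals (log2 difference -8.19 ± 0.31, adjusted p = 0.00524). Gm37282 overlaps E330023G01Rik on the same strand, and Gm37758 overlaps Gm32171 on the opposite one.

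In mm10 with GENCODE M21, Igfbp1 lies on chromosome 11 from 7197782 to 7202546 and Pgc on chromosome 17 from 47726842 to 47734482. Gata4 lies on chromosome 14 from 63198922 to 63271692, Cubn on chromosome 2 from 13276338 to 13491813 and Axin2 on chromosome 11 from 108920349 to 108950783. The promoters of the falls Igfbp1 (chr11:7197537-7197836, plus strand) and Pgc (chr17:47726592-47726891, plus strand) and of the rise Prl3d2 (chr13:27121445-27121744, plus strand) are given because these genes are the leading named changes that have a promoter in the table. They held none of the 3 motifs, so no letter is in capitals.
Igfbp1: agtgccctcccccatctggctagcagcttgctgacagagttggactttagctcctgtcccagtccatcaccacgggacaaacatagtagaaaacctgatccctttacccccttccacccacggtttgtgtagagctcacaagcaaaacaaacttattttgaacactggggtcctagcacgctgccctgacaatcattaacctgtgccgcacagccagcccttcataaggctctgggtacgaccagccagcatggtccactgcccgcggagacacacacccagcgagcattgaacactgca
Pgc: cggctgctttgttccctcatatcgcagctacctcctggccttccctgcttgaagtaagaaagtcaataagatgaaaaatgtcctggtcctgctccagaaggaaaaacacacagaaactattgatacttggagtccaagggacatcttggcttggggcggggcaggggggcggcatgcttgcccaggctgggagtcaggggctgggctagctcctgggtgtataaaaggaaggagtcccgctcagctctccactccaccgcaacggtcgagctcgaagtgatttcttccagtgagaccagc
Prl3d2: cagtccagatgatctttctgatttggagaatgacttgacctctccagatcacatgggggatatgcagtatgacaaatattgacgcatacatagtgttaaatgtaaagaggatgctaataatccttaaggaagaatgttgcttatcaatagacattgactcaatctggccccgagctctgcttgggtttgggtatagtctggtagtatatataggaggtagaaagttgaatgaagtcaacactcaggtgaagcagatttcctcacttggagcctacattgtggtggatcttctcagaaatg

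The largest rises had scores of at most 685, and several belong to families of near-identical copies whose reads the counting may have shared out. Gm8334 scored 328, 348 and 318 without Chir and 8, 0 and 1 with all chemicals (log2 difference 6.99 ± 0.67, adjusted p = 0.00656). Prl3d2, a placental lactogen of a family with close copies, scored 232, 242 and 130 without Chir and 0, 30 and 0 with all chemicals (log2 difference 5.96 ± 1.02, adjusted p = 0.0151). Gm15056, Plac9b (4.89 ± 0.49), Tgtp1 (5.11 ± 1.17) and the histone gene Hist1h4i (5.10 ± 0.34) also have close relatives. Gm15056 scored 75, 74 and 119 without Chir and 3, 0 and 0 with all chemicals (5.79 ± 0.62). Of the genes with no such doubt, Cst6, the protease inhibitor cystatin M, scored 328, 429 and 51 without Chir and 9, 4 and 2 with all chemicals (log2 difference 5.19 ± 0.51, adjusted p = 0.00667), Cxcl13, a chemokine that attracts B cells, scored 64, 68 and 79 without Chir and 6, 0 and 0 with all chemicals (log2 difference 5.22 ± 0.74, adjusted p = 0.0108), and Rprm, a p53-induced inhibitor of the cell cycle, scored 56, 64 and 187 without Chir and 1, 1 and 4 with all chemicals (log2 difference 5.03 ± 0.34, adjusted p = 0.00555). The groups of these 3 genes do not overlap. A230087F16Rik (5.74 ± 0.54) and Gm37401 (5.18 ± 1.45) are antisense to Cdc42bpb and Rhoa and overlap them in part. Reads from the shared stretches cannot be told apart. Tom1, an endosomal sorting protein, scored 164, 30 and 348 without Chir and 0, 0 and 72 with all chemicals (log2 difference 4.86 ± 1.0, adjusted p = 0.023), and its groups overlap. Gm8334 and Prl3d2 were apart before these days as well: Gm8334 scored 86 and 280 without Chir and 5 and 7 with all chemicals on days 6 and 12, and Prl3d2 scored 130 and 130 without Chir and 26 and 14 with all chemicals.

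**Figure D3:**
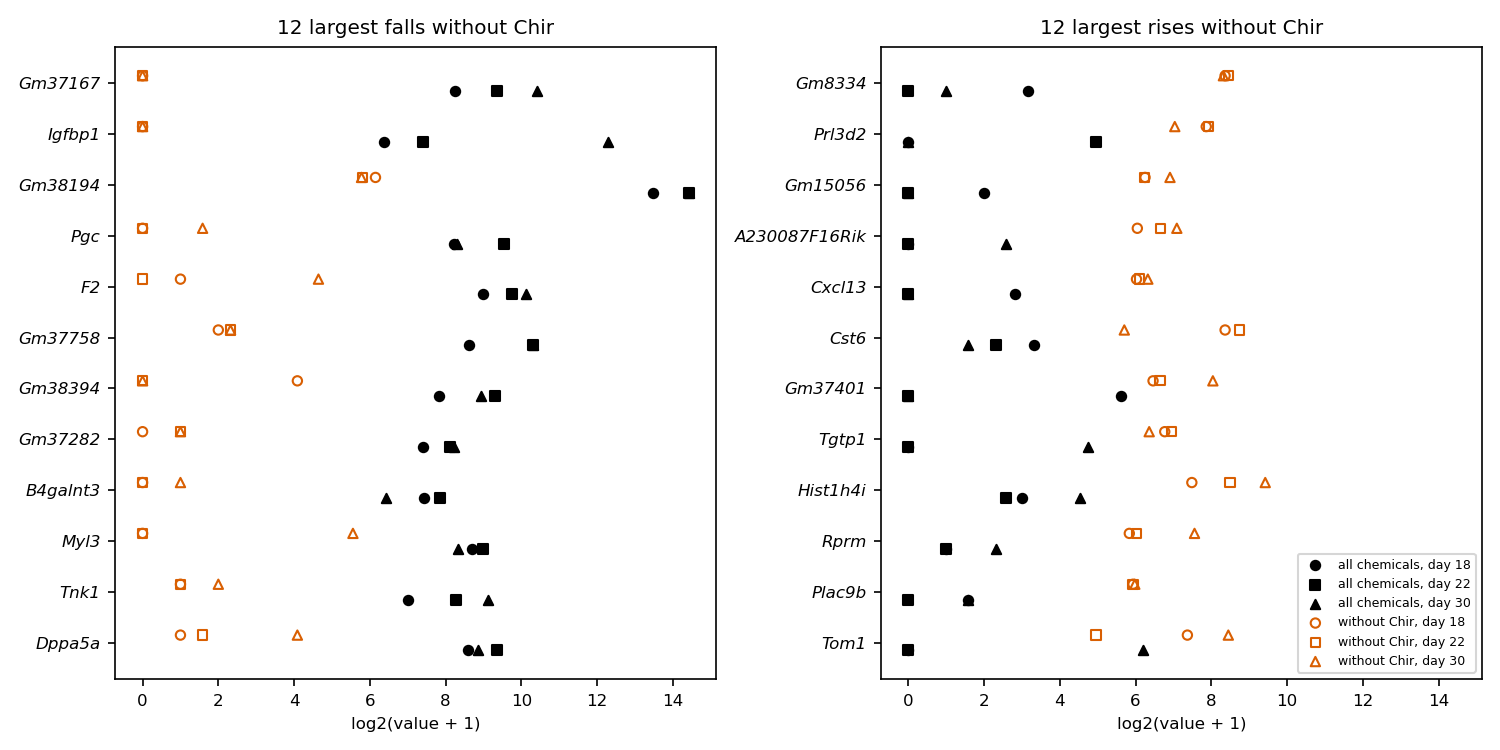
Log2(score + 1) of the 12 genes that fell most and the 12 that rose most without Chir, in each of the 6 libraries (filled black, all chemicals; open orange, without Chir; circle, square and triangle for days 18, 22 and 30). The groups of 23 of the 24 genes do not overlap, and those of Tom1 do. Among all 16215 genes tested, groups did not overlap for 3746 higher and 3918 lower without Chir. The 24 were picked for large called changes of the same sign on all 3 days, a rule that favours separate groups.

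Days 6 and 12 show when the differences began. Differences of at least 1 on the log2 scale were fewer then, with 1952 genes higher and 1892 lower on day 6 and 1773 and 1678 on day 12. The primitive endoderm list had a median difference of 0.00 on day 6, -2.58 on day 12 and -4.0 on day 18. Gata4 scored 12 and 15 without Chir and 12 and 1390 with all chemicals on days 6 and 12, so the courses were level on day 6 and apart on day 12. Pou5f1 scored 0 and 0 without Chir and 0 and 24 with all chemicals. Cell cycle genes had medians of -0.14 and -0.82 on days 6 and 12. The Wnt feedback list had the reverse order in time, with -1.06 on day 6, -0.54 on day 12 and 0.05 on day 30.

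Single feedback genes show that order. Lef1 scored 65 and 62 without Chir and 330 and 122 with all chemicals on days 6 and 12 (late minus early log2 difference 1.5 ± 0.56, adjusted p = 0.231). Nkd1 scored 254 and 132 without Chir and 867 and 286 with all chemicals (late minus early log2 difference 2.20 ± 0.36, adjusted p = 0.13). Apcdd1, a membrane inhibitor of Wnt, scored 140 and 190 without Chir and 1585 and 1180 with all chemicals on days 6 and 12 and 144, 171 and 80 without Chir and 364, 218 and 68 with all chemicals on days 18 to 30 (late minus early log2 difference 2.58 ± 0.50, adjusted p = 0.134). In the full course these 3 genes came down by day 30, to the level without Chir or below it. Axin2 scored 70 and 101 without Chir and 390 and 365 with all chemicals on the early days (late minus early log2 difference 0.06 ± 0.78, adjusted p = 0.977). A limma fit over the 10 libraries, which sets the effect of days 18 to 30 against that of days 6 and 12, called 0 of 16248 genes (0%), with 3002 at an unadjusted p under 0.05. A fit that also took in the course without BrdU (15 libraries) called 128, and a filter at a mean of 20 called 2. The change in these Wnt genes with time is therefore given as values and did not pass the test.

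The course without Chir was also set against the course without BrdU. The libraries without Chir are the same as above, so the 2 comparisons share them, and this one was tested on its own. Of 16062 genes, 1984 were called higher (12.4%) and 1801 lower (11.2%) without Chir than without BrdU. Without day 18 or day 22, limma called 0 genes (4553 and 3629 at an unadjusted p under 0.05), and without day 30, 1941. Fibroblast genes were lower without Chir, with 25 of 35 lower without Chir and 1 higher (median -1.84, against 0.02 over all genes). Col6a1 scored 165, 116 and 96 without Chir and 2419, 2908 and 1794 without BrdU (log2 difference -4.24 ± 0.19, adjusted p = 0.0039). Smooth muscle genes were lower in 12 of 15 cases (median -1.73). Acta2 scored 206, 185 and 1070 and 372, 398 and 2419 (log2 difference -1.04 ± 0.14, adjusted p = 0.0128), so it lay between the full course and the course without BrdU.

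The primitive endoderm list had a lower mean level in both omission courses than in the full course. Some of its members were higher without Chir than without BrdU. Sox17 scored 52, 46 and 150 without Chir and 8, 6 and 3 without BrdU (log2 difference 3.51 ± 0.63, adjusted p = 0.0227), and Foxa2 scored 10, 16 and 44 and 0, 0 and 2 (log2 difference 3.82 ± 0.45, adjusted p = 0.0112). Gata4 scored 24, 11 and 106 and 6, 4 and 10 (log2 difference 2.13 ± 0.51, adjusted p = 0.0429). Of 16 primitive endoderm genes, 6 were called higher without Chir and 2 lower (median 1.13). Foxa1 was lower (1, 2 and 8 without Chir and 102, 206 and 82 without BrdU, -5.0 ± 0.65). Of 21 pluripotency genes tested, 4 were higher and 1 lower. Epithelial genes were lower in 11 of 30 cases, with Krt7, a keratin of ducts and trophoblast, at 44, 60 and 30 without Chir and 1270, 2033 and 322 without BrdU (log2 difference -4.42 ± 0.36, adjusted p = 0.00557).

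Wnt feedback genes gave 8 of 24 members called lower without Chir than without BrdU and 4 called higher (median -0.38). Lef1 scored 179, 241 and 79 without BrdU (log2 difference -2.09 ± 0.32, adjusted p = 0.0167), Nkd1 535, 440 and 317 (log2 difference -2.55 ± 0.20, adjusted p = 0.00554) and Apcdd1 1212, 1473 and 440 (log2 difference -2.87 ± 0.18, adjusted p = 0.00438). All 3 lie above every score without Chir. Axin2 scored 118, 167 and 367 without BrdU (log2 difference -1.57 ± 0.24, adjusted p = 0.0176). Lef1, Nkd1 and Apcdd1 were not called against the full course, and whether the 2 comparisons differ was not tested. Ccnd1 was again higher without Chir (1002, 1190 and 88 without BrdU, log2 difference 2.55 ± 0.35, adjusted p = 0.0139).

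The genes furthest apart between the omission courses were Gm8334 (1, 0 and 0 without BrdU), Prl3d2 (0, 0 and 0) and Dlk1, with 6861, 8303 and 825 without Chir and 116, 99 and 1 without BrdU (log2 difference 6.98 ± 0.57, adjusted p = 0.00557). Psg17, a placental glycoprotein of a large family, and Gm15056 complete the 5 largest rises (6.48 ± 0.61 and 6.46 ± 0.41). On the other side stood Alb, serum albumin, with 0, 3 and 7 and 630, 653 and 884 (log2 difference -7.81 ± 0.53, adjusted p = 0.00462), Krt6a, a keratin of stratified epithelia, with 4, 4 and 2 and 2904, 4959 and 112 (log2 difference -8.12 ± 0.95, adjusted p = 0.0109), the matrix protein Mfap4 (-7.91 ± 0.37), the GABA receptor subunit Gabrp (-7.75 ± 0.48) and the keratin gene Krt4. Cyp26a1, the retinoic acid hydroxylase, was lower than in the full course but scored 38, 28 and 6 without BrdU (log2 difference 5.71 ± 0.19, adjusted p = 0.00253). Cell cycle genes were called higher than without BrdU in 11 of 41 cases and lower in 0, and interferon genes in 15 and 2 of 28. Of 28 cell cycle inhibitors and p53 targets, 7 were called higher without Chir than without BrdU and 0 lower (median 0.44). Cdkn2a (0.34 ± 0.25) and Cdkn1a (0.19 ± 0.29) were not called between the omission courses.

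**Figure D4:**
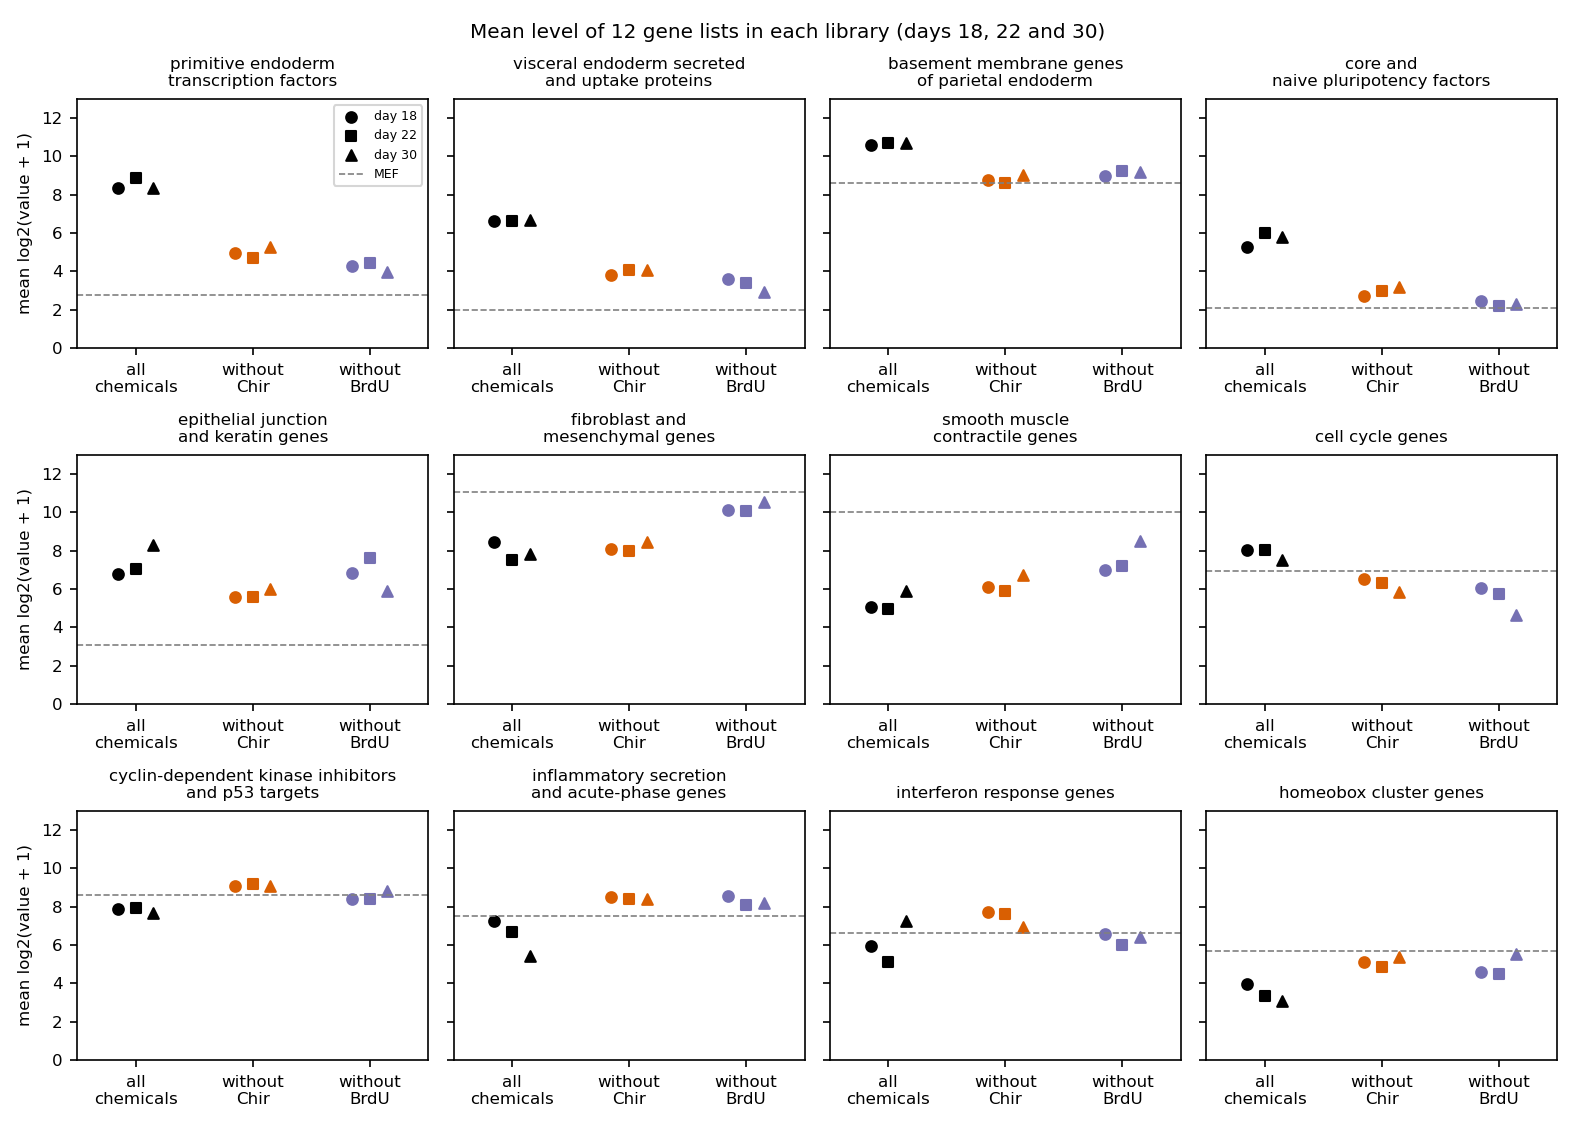
Mean log2(score + 1) of the tested members of 12 gene lists in each library of days 18, 22 and 30 (circle, square, triangle) with all chemicals (black), without Chir (orange) and without BrdU (purple); the dashed line is the single fibroblast (MEF) library of day 0. Endoderm and pluripotency lists lie below the full course in both omission courses, and the fibroblast list lies above both other courses in all 3 libraries without BrdU. Without Chir, the primitive endoderm list (4.95, 4.68 and 5.25) still lies above the fibroblast library (2.77). The basement membrane list (8.79, 8.59 and 9.02) lies near that library (8.62).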

How the data were processed

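The 6 libraries compared were prepared with TruSeq RNA reagents and sequenced on a NextSeq 500, per the labels' protocols. bcl2fastq, Bowtie2, RSEM and the build mm10 are named in the submitters' processing notes, and their versions and settings are not given in the sources used here. The deposited table holds a score per gene, whole numbers with the same distribution in every library. It is named as CPM, but the authors' values do not have the sum that CPM has, so they were treated as a score with no known depth, no count model was used and no interval for counting error can be given.

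Genes with a mean score of at least 1 over the libraries of a fit were tested on log2(score + 1) with limma 3.58.1 in R 4.3.3, with day as a block and an intensity trend in the prior variance. That leaves 2 residual degrees of freedom. An exact sign-flip test over 3 pairs cannot go below a two-sided p of 0.25. The script was tested on simulated data. Other pseudocounts, filters, priors and fits, and leaving out each day, were tried. Named genes were the 12 largest changes in each direction among called genes, the 4 members of smallest p per list and direction, and 5 in each direction against the course without BrdU. Further genes were chosen after their values were seen, and a few genes that the rule names are not reported here. Members and lists were chosen with earlier results of these data known. Promoters come from RefSeq (GRCm38.p6) and positions from GENCODE M21. Figures were drawn with matplotlib 3.10.9.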

Additional observations from a re-analysis of the deposited data

Results flagged for a closer look

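AP-1 factors, which include the Fos and Jun proteins, had a median log2 difference of 0.70 on days 18 to 30 (daily medians 0.58, 0.40 and 0.50) and of -0.34 and -0.15 on days 6 and 12, without Chir minus all chemicals. They were singled out because every late day lay on one side of 0 and every early day on the other. The difference between early and late days was not tested. On days 18 to 30, 1 of the 13 genes was called higher (Maf, 7.69%) and 2 lower (Fosb and Jun, 15.4%). The shares of all genes tested were 17.2% and 17.6%. The called Fos and Jun members therefore lay on the other side of 0 from the list's late median.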

How the results depend on the processing

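Leaving out 1 day at a time gave 0 to 2519 called genes against the full course (5638 over 3 days; 2271 of the 2519 without day 30 were shared with those) and 0 to 1941 against the course without BrdU (3785). With 2 pairs 1 residual degree of freedom is left. All other settings kept the first count within 4298 (no intensity trend) and 7139 (15-library fit) and the second within 3058 (no day block) and 3923 (mean of at least 20). The late against early comparison called 2 genes with a mean of at least 20 and 128 in the 15-library fit, against 0. The rule of size gave 1662 genes at a pseudocount of 20 against 3187, an alternative chosen after seeing the data, as were all others for that rule. With a pseudocount of 5, the median was -3.35 for the primitive endoderm list, -2.09 for visceral endoderm secreted and uptake proteins, -1.78 for core and naive pluripotency factors. With a pseudocount of 20, the median was -3.32 for the primitive endoderm list, -1.31 for visceral endoderm secreted and uptake proteins, -1.02 for core and naive pluripotency factors, -1.02 for epithelial junction and keratin genes, 0.67 for adipocyte genes, -1.49 for cell cycle genes. With a mean of at least 20, the median was -3.32 for core and naive pluripotency factors. Without 1 day, medians ranged from -0.39 to -0.0029 for Wnt feedback and direct targets of beta-catenin, -4.18 to -3.65 for the primitive endoderm list, -3.08 to -2.49 for visceral endoderm secreted and uptake proteins, 0.67 to 1.03 for adipocyte genes, 1.03 to 1.27 for cyclin-dependent kinase inhibitors and p53 targets. For genes whose sign turned or reached 0, the log2 difference without 1 day ranged from -0.051 to 0.059 for Col1a1, -0.42 to 0.44 for Ctnnb1, -0.50 to 0.79 for Foxa1, -0.26 to 0.0017 for Gsk3a, -0.47 to 0.035 for Lef1, -0.25 to 0.23 for Lin28b, -1 to 0 for Sox2, -1.28 to 0.87 for Twist1. With a pseudocount of 20 that of Twist1 was -0.052. None of these genes had been called. Of 181 single genes refitted, 151 were called, and of those 151 lost the call without day 18, 151 without day 22, 40 without day 30 and 23 without the day block. Fewer libraries were in the fits without a day, and the cause of the other losses was not tested. No paired analysis by replicate number was possible because the labels give no replicate numbers; the day was the block in the main fit. Depth is unknown, so low scores carry an unknown counting error.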
